A study of Mus musculus with 24 samples.

Results

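The genes described here are 9 components of the Indian hedgehog (Ihh) and parathyroid hormone-related protein (PTHrP) pathway of growing cartilage. They were taken by symbol from the gene table, where they make up 9 of 52178 genes, and all 9 passed the filter on low counts. They are the ligands *Ihh* and *Pthlh*, the latter encoding PTHrP, the PTHrP receptor *Pth1r*, the hedgehog receptor *Ptch1*, the signal transducer *Smo*, the transcription factors *Gli1*, *Gli2* and *Gli3*, and the hedgehog-binding inhibitor *Hhip*. Their RNA was measured in 2 kinds of mouse cartilage explant kept in culture: hip caps, which are the cartilage of the femoral head, from C57/BL6 males (C57/BL6J in the study's methods) aged 4 weeks, and metatarsals from embryos of the same strain at embryonic day 15, whose sex was not recorded. After 24 h in culture each explant spent 1 h in a pressure vessel at 0 (control), 5 or 50 MPa of hydrostatic pressure (written mPa in the labels), with 5 MPa termed physiological and 50 MPa injurious, and then a further 24 h in culture. Each of the 6 groups held 4 libraries, and each library pooled 2 hip caps or 6 metatarsals. The tissues differed in age, skeletal site and culture medium at once, so a difference between them cannot be told apart from any of these. No gene was deleted and no drug was given as a treatment in any group. The hip cap medium held penicillin and streptomycin, and the metatarsal medium held gentamicin and fungizone among other supplements.

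In the growth plate, chondrocytes leaving the cell cycle secrete Ihh, which binds Ptch1 on neighbouring cells and so releases Smo from inhibition. Smo acts through the primary cilium to turn Gli2 and Gli3 from repressors into activators, and *Gli1*, *Ptch1* and *Hhip* are themselves transcribed in response, the last 2 acting as a brake. Ihh also raises PTHrP production near the ends of the bone, and PTHrP, through Pth1r, keeps chondrocytes dividing and delays their hypertrophy. Articular chondrocytes are a further source of PTHrP.

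Total estimated counts ranged from 4185557 to 25104484 per library. A hip cap control (HC4) and a hip cap at 50 MPa (H502) were set aside by the study as outliers and are left out here unless stated, so 22 libraries entered the tests. In those 2 libraries *Ihh* was at 6.83 and 13.1 CPM (library-size normalised counts, scaled by the trimmed mean of M values) and *Pth1r* at 181 and 76.6 CPM, below all 10 other hip cap libraries for both genes. CPM of these 2 libraries were scaled with all 24 libraries, and CPM of the others with the 22. With all 24 libraries the number of the 9 genes that differed between tissues fell to 3 in controls, 5 at 5 MPa and 4 at 50 MPa. The calls over all genes fell too. In controls 2449 of 21167 genes were higher and 2734 lower, against 2994 and 3378 of 21283 with 22 libraries. At 5 MPa they were 2453 and 2120 against 4003 and 4058, and at 50 MPa 879 and 902 against 2160 and 2038. Both tissues expressed all 6 chondrocyte markers in every group. All 6 chondrocyte markers and all 5 hypertrophic markers were higher in hip cap than in metatarsal controls, while all 5 muscle and all 5 perichondrial and mesenchymal markers were lower. Sequencing run and library type were unevenly spread. Run is in no label and was read from a colour strip in the study's clustering figure. The split there differs from that in the study's methods, so every statement on run is uncertain. All 3 hip cap controls and all 3 hip caps at 50 MPa were on run 1, all 4 hip caps at 5 MPa on run 2, and the hip caps at 50 MPa were all made as unstranded libraries against 1 of 3 controls. By this reading, the comparison of tissues at 5 MPa is the one in which all 8 libraries shared run and library type.

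The promoter windows of the ligand *Ihh*, its receptor *Ptch1* and the inhibitor *Hhip* are shown because the first 2 genes separated the tissues in every library and *Hhip* was the one gene of the 9 whose window held a cyclic AMP response element, a motif bound by CREB proteins. Each window runs from 250 bases before to 50 bases after a transcription start in RefSeq (GRCm38.p6) and is written 5′ to 3′ on the gene's strand. They lie at chr1:74951623-74951922, chr13:63565686-63565985 and chr8:80057959-80058258, all on the minus strand, and capitals mark the element TGACGTCA.
*Ihh*: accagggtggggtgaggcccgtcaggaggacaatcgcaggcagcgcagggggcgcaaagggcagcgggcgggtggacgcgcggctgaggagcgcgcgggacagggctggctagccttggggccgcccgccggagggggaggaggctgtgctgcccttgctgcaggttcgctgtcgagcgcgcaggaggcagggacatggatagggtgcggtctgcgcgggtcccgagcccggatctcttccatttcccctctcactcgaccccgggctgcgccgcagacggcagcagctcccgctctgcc
*Ptch1*: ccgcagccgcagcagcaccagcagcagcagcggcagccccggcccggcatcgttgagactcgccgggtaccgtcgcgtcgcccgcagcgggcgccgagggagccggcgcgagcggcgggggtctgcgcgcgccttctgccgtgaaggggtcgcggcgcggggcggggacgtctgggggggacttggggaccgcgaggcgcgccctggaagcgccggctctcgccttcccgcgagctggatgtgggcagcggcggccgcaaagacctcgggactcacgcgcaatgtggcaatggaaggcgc
*Hhip*: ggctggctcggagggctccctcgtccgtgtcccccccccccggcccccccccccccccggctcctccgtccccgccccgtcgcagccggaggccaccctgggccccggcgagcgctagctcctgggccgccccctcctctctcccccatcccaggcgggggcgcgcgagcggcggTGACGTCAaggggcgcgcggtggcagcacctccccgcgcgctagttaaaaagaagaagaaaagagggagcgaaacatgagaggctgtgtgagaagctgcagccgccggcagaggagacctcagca
The table held 10 windows for 8 of the 9 genes, 3 of them for *Pth1r*, and has no entry for *Gli1*. The GLI-binding sequence GACCACCCA, searched on both strands, was in 83 of all 32851 windows (0.253%) and in none of these 10. The palindrome TGACGTCA was in 1.79% of all windows and in that of *Hhip*, starting at position -75 when the first base of the transcript is 0. The RUNX core TGTGGT or its reverse complement ACCACA was in 16.8% of all windows and in that of *Gli3*, from position -120. No window of the 9 genes held more than 1 of the 3 motifs, and a match is only a match of letters.

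The hip caps held far more RNA for the ligands and for the PTHrP receptor than the metatarsals did. *Ihh* was at 99.2, 62.4 and 114 CPM in the 3 hip cap controls, at 61.6, 59.5, 43.6 and 67.0 CPM at 5 MPa and at 53.2, 37.8 and 111 CPM at 50 MPa. In metatarsals it was at 0.766, 0.642, 1.72 and 0.463 CPM in controls, at 2.52, 1.19, 0.765 and 0.935 CPM at 5 MPa and at 0.793, 0.712, 0.781 and 1.37 CPM at 50 MPa. The lowest hip cap library was above the highest metatarsal library, and the metatarsal values rest on 4 to 56 estimated counts. The log2 fold change was 6.31 ± 0.72 (SE; adjusted p = 4.5e-06) between controls, 5.39 ± 0.42 (adjusted p = 1.8e-08) at 5 MPa and 5.71 ± 0.71 (adjusted p = 1.7e-05) at 50 MPa. These adjusted p-values, like those that follow, are from the edgeR quasi-likelihood test with Benjamini-Hochberg adjustment over 21283 genes, with sequencing run and library type as terms. With these terms the control comparison put a weight of -0.64 on metatarsal control replicate 1 and -0.12 on each other metatarsal control. It also put -0.36 on metatarsal 50 MPa replicate 4. The 50 MPa comparison put -0.76 on that same library, so both tissue differences rest largely on single metatarsal libraries. *Ihh* passed the 0.05 threshold in all 3 tissue comparisons under each of the 31 alternatives.

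**Figure D1:**
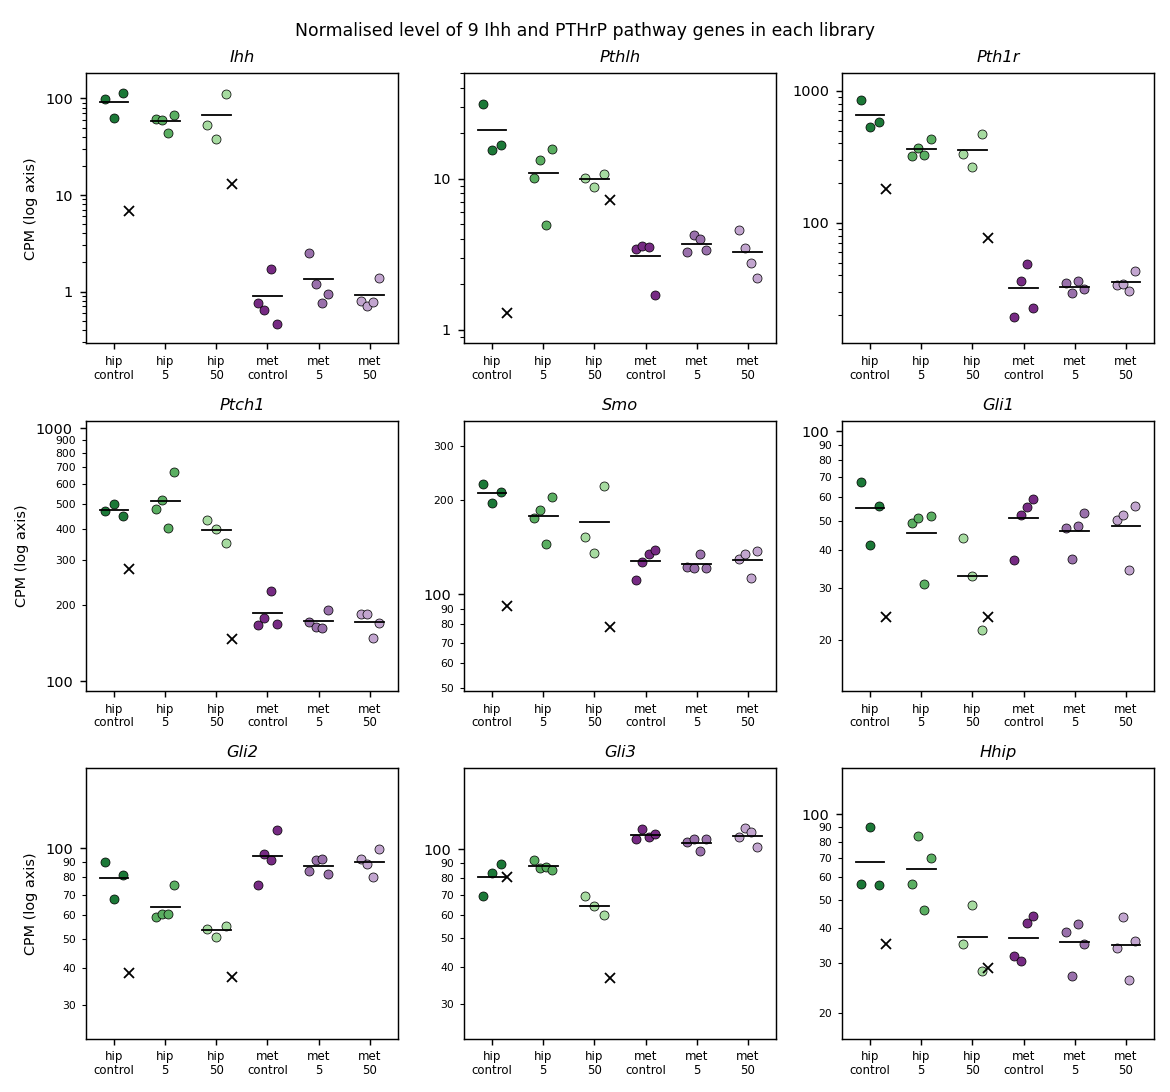
CPM of the 9 genes in each library on a log axis, by tissue (hip, hip cap; met, metatarsal) and pressure (control, 5 or 50 MPa); points are libraries, lines are group means, and crosses are the 2 hip cap libraries left out by the study. *Ihh*, *Pthlh*, *Pth1r* and *Ptch1* lie higher in all 10 hip cap libraries used than in all 12 metatarsal libraries, and *Gli3* lies lower. Crosses were scaled with all 24 libraries and points with the 22 used.

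*Pthlh* was at a low level in both tissues and still separated them. It was at 31.25, 15.4 and 16.7 CPM in hip cap controls, at 10.1, 13.2, 4.95 and 15.7 CPM at 5 MPa and at 10.1, 8.87 and 10.8 CPM at 50 MPa. In metatarsals it ranged from 1.70 to 3.58 CPM in controls, from 3.28 to 4.22 CPM at 5 MPa and from 2.21 to 4.56 CPM at 50 MPa. The log2 fold change was 2.92 ± 0.48 (adjusted p = 9.0e-05) in controls, 1.56 ± 0.30 (adjusted p = 0.00025) at 5 MPa and 2.04 ± 0.50 (adjusted p = 0.0059) at 50 MPa. The left-out control HC4 had 1.30 CPM, and with all 24 libraries the control comparison no longer passed (log2 fold change 1.66, adjusted p = 0.099). At 50 MPa the call was lost with library sizes alone (1.07, adjusted p = 0.15), with all 24 libraries (1.11, adjusted p = 0.43) and without metatarsal replicate 4 (1.65, adjusted p = 0.31).

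*Pth1r*, the receptor for PTHrP, was the most abundant of the 9 per length of transcript in hip caps. Its hip cap controls were at 851, 536 and 585.5 CPM, the 5 MPa hip caps at 322, 370, 329 and 435 CPM and the 50 MPa hip caps at 334, 266 and 472 CPM. Metatarsals were at 19.5, 36.4, 49.0 and 22.5 CPM in controls, from 29.4 to 36.2 CPM at 5 MPa and from 30.6 to 43.4 CPM at 50 MPa. *Pth1r* was thus 23.5-fold higher in hip cap controls (log2 fold change 4.56 ± 0.41, adjusted p = 6.2e-08), 11.04-fold at 5 MPa (3.46 ± 0.26, adjusted p = 1.2e-09) and 10.2-fold at 50 MPa (3.35 ± 0.38, adjusted p = 2.1e-06). Its related hormones and receptor were scarcely detected: *Pth*, *Pth2* and *Pth2r* did not pass the filter, at medians of 0.0, 0.0 and 0.0 CPM in hip caps and 0.0, 0.0 and 0.275 CPM in metatarsals.

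Of the 2 receptor components of hedgehog signalling, *Ptch1* differed more than *Smo*. *Ptch1* was at 469, 499.5 and 449 CPM in hip cap controls, at 480, 520, 402 and 668 CPM at 5 MPa and at 434, 400 and 352 CPM at 50 MPa, against 148 to 226 CPM over the 12 metatarsal libraries. The groups did not overlap, and the log2 fold change was 1.43 ± 0.22 (adjusted p = 4.5e-05) in controls, 1.59 ± 0.15 (adjusted p = 4.8e-08) at 5 MPa and 1.29 ± 0.23 (adjusted p = 0.00032) at 50 MPa. The call at 50 MPa was lost in 4 of 31 alternatives: with library sizes alone (0.38, adjusted p = 0.44), with all 24 libraries (0.88, adjusted p = 0.17), within run 1 (1.26, adjusted p = 0.094) and without metatarsal replicate 4 (1.45, adjusted p = 0.052). *Smo* averaged 211 CPM (SD 14.9, n = 3) in unpressured hip caps against 128 CPM (SD 11.96, n = 4) in unpressured metatarsals, and it was 0.78 ± 0.21 higher on the log2 scale (adjusted p = 0.0070), a call lost without metatarsal control replicate 1 (0.54, adjusted p = 0.30). It was 0.51 ± 0.14 higher on the log2 scale at 5 MPa (adjusted p = 0.0075), and at 50 MPa the difference of 0.39 ± 0.21 did not pass (adjusted p = 0.23). *Smo* changed sign when libraries were scaled by their totals alone, to -0.14 in controls and -0.10 at 5 MPa, a scaling that moved the median of all genes to -0.97 and -0.70. Relative to that median *Smo* was 0.83 and 0.60 higher, and *Ptch1* was 1.48 and 1.66 higher. Under that scaling *Ptch1* in controls was at 0.51 and no longer passed (adjusted p = 0.24).

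*Hhip*, whose product binds hedgehog ligands at the cell surface, was at 56.8, 90.4 and 56.3 CPM in hip cap controls and at 57.0, 83.5, 45.9 and 70.3 CPM at 5 MPa, above the metatarsal ranges of 30.6 to 43.9 CPM and 27.0 to 41.3 CPM. The log2 fold change was 0.94 ± 0.32 (adjusted p = 0.034) in controls and 0.85 ± 0.22 (adjusted p = 0.0043) at 5 MPa. At 50 MPa the hip caps, at 35.1, 48.1 and 28.2 CPM, overlapped the metatarsals at 26.1 to 43.4 CPM, and the difference of 0.23 ± 0.32 did not pass (adjusted p = 0.70). The *Hhip* call in controls held in 23 of 31 alternatives, with log2 fold changes from 0.04 to 1.215. At 5 MPa it held in 30 of 31, with log2 fold changes from 0.28 to 1.06. Among its losses in controls were those without hip cap control replicate 2 (0.68, adjusted p = 0.12), metatarsal control replicate 1 (0.50, adjusted p = 0.59) or metatarsal 50 MPa replicate 2 (0.87, adjusted p = 0.059).

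The 3 GLI factors did not follow the ligand. *Gli1*, the transcriptional readout of the pathway, averaged 55.2 CPM (SD 13.1, n = 3) in unpressured hip caps and 51.2 CPM (SD 9.82, n = 4) in unpressured metatarsals, with overlapping libraries. At 5 MPa its log2 fold change was -0.02 ± 0.21, with a 95% interval from -0.44 to 0.39, and it passed in none of the 3 comparisons (adjusted p = 0.62, 0.95 and 0.22). *Gli2*, the main activator, was at 89.95, 67.9 and 81.55 CPM in hip cap controls, at 59.0, 60.2, 60.5 and 75.4 CPM at 5 MPa and at 54, 50.6 and 55.1 CPM at 50 MPa, against 75.2 to 115 CPM in metatarsal controls, 82.2 to 92.4 CPM at 5 MPa and 80.2 to 99.2 CPM at 50 MPa. *Gli2* was lower in hip caps at 5 MPa, by 0.46 ± 0.12 on the log2 scale (adjusted p = 0.0055), and at 50 MPa, by 0.77 ± 0.18 (adjusted p = 0.0029), and its difference in controls of -0.14 ± 0.17 did not pass (adjusted p = 0.57). The call at 50 MPa was lost without metatarsal replicate 4 (-0.39, adjusted p = 0.51). *Gli3*, mainly a repressor, was lower in all 10 hip cap libraries, at 59.7 to 92.5 CPM, than in all 12 metatarsal libraries, at 98.5 to 118 CPM. Its log2 fold change was -0.39 ± 0.14 in controls (adjusted p = 0.036), -0.26 ± 0.10 at 5 MPa (adjusted p = 0.041) and -0.74 ± 0.14 at 50 MPa (adjusted p = 0.00071). At 5 MPa the *Gli3* call passed in only 14 of 31 alternatives, with log2 fold changes from -0.88 to -0.17, and leaving out any of 14 libraries ended it, among them all 4 hip caps at 5 MPa, with adjusted p-values from 0.051 to 0.26. In controls it was lost without hip cap control replicate 1 (-0.29, adjusted p = 0.11), metatarsal control replicate 1 (-0.17, adjusted p = 0.68) or replicate 2 (-0.38, adjusted p = 0.051), or metatarsal 50 MPa replicate 1 (-0.39, adjusted p = 0.053).

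**Figure D2:**
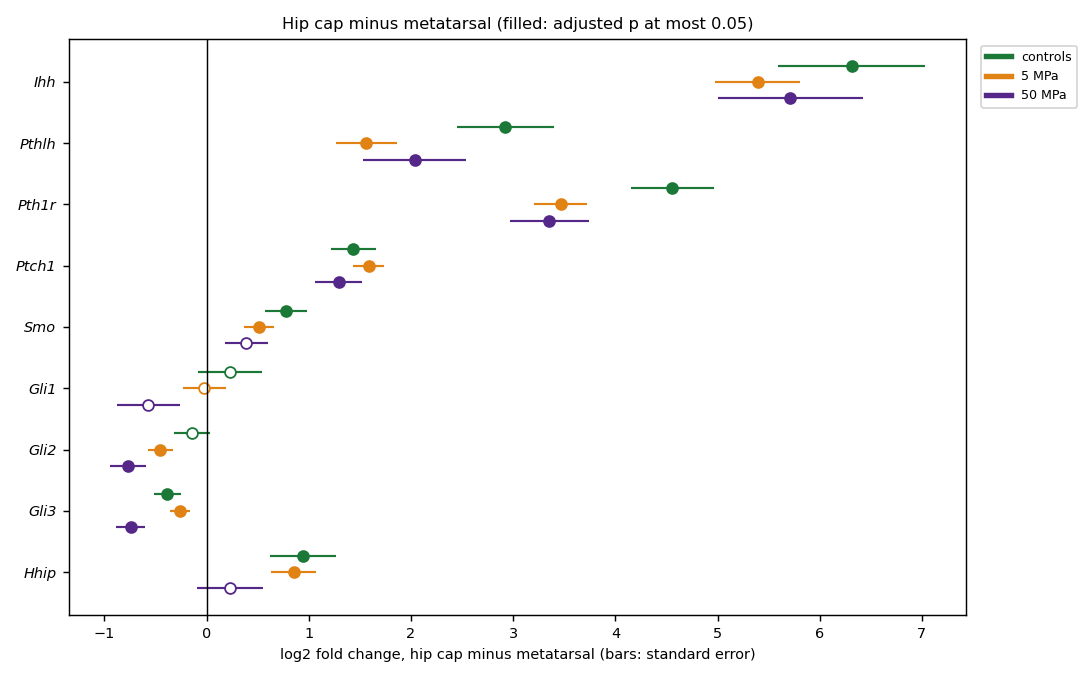
Log2 fold change (hip cap minus metatarsal) of the 9 genes in controls, at 5 MPa and at 50 MPa; points are fitted values, bars are standard errors, and filled points passed an adjusted p of 0.05. *Ihh* and *Pth1r* lie farthest to the right, while *Gli1* straddles 0. *Smo* changes sign in controls and at 5 MPa when libraries are scaled by their totals alone.

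In counts, 7 of the 9 genes differed between tissues in controls, where 29.9% of all genes did, 8 of 9 at 5 MPa against 37.9%, and 6 of 9 at 50 MPa against 19.7%. Of these, 6, 6 and 4 were higher in hip caps. The median log2 fold change of the 9 was 0.94, 0.85 and 0.39, beside -0.08, -0.08 and -0.01 for all genes tested. Within run 1 metatarsals had a single library per comparison, and that library was assumed to vary like the others. Fewer of the 9 genes passed there, in controls and at 50 MPa. Without metatarsal control replicate 1 the control count was 4, where 1204 of all 21336 genes were higher and 1366 lower. Without metatarsal 50 MPa replicate 4 the count at 50 MPa was 3, where 570 of 21113 genes were higher and 488 lower. With all 22 libraries the calls over 21283 genes were 2994 and 3378 in controls and 2160 and 2038 at 50 MPa. Fewer of all genes passed within run 1 as well. In these bulk samples fewer cells of a type and less RNA per cell cannot be told apart. The 5 hypertrophic markers summed to between 10320 and 12360 CPM in hip cap controls and to between 108 and 334 CPM in metatarsal controls, and the 6 chondrocyte markers to between 41380 and 68310 CPM and between 1392 and 3686 CPM. Among the hypertrophic markers, *Col10a1*, the collagen of hypertrophic cartilage, was at 6609 CPM against 5.22 CPM, and none of these 11 markers was at 0 in any group. The summed muscle markers were at 6.52 to 10.9 CPM in hip cap controls, with *Myog* at 0, and at 980 to 2410 CPM in metatarsal controls. The 3 osteoblast markers, all called higher in hip cap controls, summed to 80.4 to 114 CPM there and to 6.89 to 20.9 CPM in metatarsal controls. The part of these cell types in the differences was not tested.

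Ratios within a library do not depend on scaling, and 3 were computed after the values had been seen, as log2 ratios of estimated counts plus 0.5, so they are a description with no test. The *Ptch1* to *Gli1* ratio was 3.50 ± 0.22 (SD, n = 4) in hip caps at 5 MPa and 1.90 ± 0.17 (n = 4) in metatarsals at 5 MPa. The libraries did not overlap. The same held in the unpressured groups, where the ratio was 2.79 to 3.59 in hip caps and 1.51 to 2.17 in metatarsals. *Pth1r* to *Pthlh* was 5.16 ± 0.60 in hip caps and 3.14 ± 0.25 in metatarsals. *Gli3* to *Gli2* was 0.47 ± 0.20 and 0.27 ± 0.13, with overlapping libraries.

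**Figure D3:**
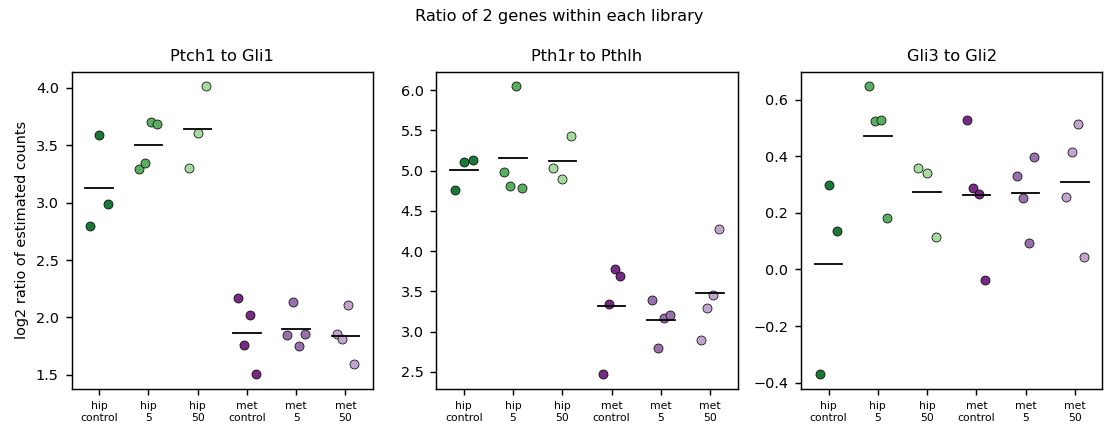
Log2 ratio of estimated counts of 2 genes within each library, by tissue and pressure (MPa); points are libraries and lines are group means. In the *Ptch1* to *Gli1* and *Pth1r* to *Pthlh* panels every hip cap library lies above every metatarsal library, and in the *Gli3* to *Gli2* panel the tissues overlap.

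Per kilobase of the longest protein-coding transcript, the hip cap order by median CPM per kb over 10 libraries was *Pth1r* at 174, *Ptch1* at 59.4, *Smo* at 50.5, *Ihh* at 25.1, *Gli1* at 11.5, *Gli3* at 10.3, *Gli2* at 9.09, *Pthlh* at 7.5 and *Hhip* at 6.23. In the 12 metatarsal libraries it was *Smo* at 34.0, *Ptch1* at 22, *Pth1r* at 14.8, *Gli2* at 13.8, *Gli3* at 13.4, *Gli1* at 12.7, *Hhip* at 3.90, *Pthlh* at 2.16 and *Ihh* at 0.319. *Ihh* thus moved from the middle of the order to its foot. Across the 6 groups, the means of *Ihh* ran in the order hip cap control, hip cap 50 MPa, hip cap 5 MPa and then the metatarsals, and the only neighbours whose libraries did not overlap were the lowest hip cap group and the highest metatarsal group. The same single break held for *Pthlh*. *Pth1r* had a further break between hip cap controls and hip caps at 5 MPa, and *Ptch1* and *Gli3* had one between hip cap controls and hip caps at 50 MPa. The one break of *Gli2* lay between hip caps at 5 and 50 MPa. In *Gli1*, *Smo* and *Hhip* every pair of neighbouring groups overlapped.

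Pressure was applied to ask how load alters each cartilage. In hip caps at 50 MPa all 9 genes had a negative log2 fold change, from -1.10 to -0.25, beside a median of 0.02 over all genes, and 1 of 9 passed, where 5.18% of all genes did. That gene was *Gli2*, at 54, 50.6 and 55.1 CPM against 89.95, 67.9 and 81.55 CPM in controls, which fell by 0.76 ± 0.18 on the log2 scale (adjusted p = 0.025). *Pth1r* had a log2 fold change of -1.10 ± 0.36 (adjusted p = 0.076), *Gli1* of -0.96 ± 0.32 (adjusted p = 0.081) and *Gli3* of -0.40 ± 0.14 (adjusted p = 0.10). *Ihh* was at -0.85 ± 0.51 (adjusted p = 0.34), *Hhip* at -0.76 ± 0.33 (adjusted p = 0.18), *Pthlh* at -0.68 ± 0.43 (adjusted p = 0.37), *Smo* at -0.41 ± 0.21 (adjusted p = 0.26) and *Ptch1* at -0.25 ± 0.22 (adjusted p = 0.54). In CPM, 6 of the 9 lay lower in all 3 hip caps at 50 MPa than in all 3 controls (*Pthlh*, *Pth1r*, *Ptch1*, *Gli2*, *Gli3* and *Hhip*), where 7.56% of all genes did. With the left-out libraries added, only *Gli3* did, where 0.752% of all genes did.

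The *Gli2* call at 50 MPa held in 24 of 32 alternatives, with log2 fold changes from -1.18 to -0.53. It was lost with library sizes alone (-0.53, adjusted p = 0.44), with all 24 libraries (-0.62, adjusted p = 0.26), with hip caps fitted alone (-0.59, adjusted p = 0.43), within run 1 (-0.61, adjusted p = 0.43), and without hip cap control replicate 3 (-1.18, adjusted p = 0.20), hip cap 50 MPa replicate 3 (-0.77, adjusted p = 0.055), metatarsal control replicate 1 (-0.66, adjusted p = 0.061) or metatarsal 50 MPa replicate 4 (-0.67, adjusted p = 0.059). Hip cap control replicate 3 is the one unstranded control and carried a weight of -0.76 in this contrast, against -0.12 for each of the other 2. With DESeq2, which called 2455 of 17130 genes here (1540 higher and 915 lower), 4 of the 9 were lower at 50 MPa, namely *Gli2*, *Pth1r* (adjusted p = 0.025), *Gli1* (adjusted p = 0.037) and *Gli3* (adjusted p = 0.0088). The summed chondrocyte markers were at 28750 to 32210 CPM at 50 MPa against 41380 to 68310 CPM in controls, with 2 of 6 markers called lower, *Sox9* and *Comp*. The summed macrophage and osteoclast markers were at 283 to 845 CPM against 145 to 258 CPM, with 0 of 4 called, and the muscle markers at 25 to 39.9 CPM against 6.52 to 10.9 CPM, with 1 of 5 called higher (*Ttn*). The summed osteoblast markers were at 55.05 to 75.5 CPM against 80.4 to 114 CPM, with 1 of 3 called lower (*Sp7*). Of these 18 markers *Myog* alone was at 0, in both groups. The summed hypertrophic markers were at 8998 to 18270 CPM at 50 MPa against 10320 to 12360 CPM in controls, with 0 of 5 called. The summed perichondrial and mesenchymal markers were at 938 to 1486 CPM against 637 to 1276 CPM, with 0 of 5 called. The part of all these cell types in the result was not tested.

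At 5 MPa none of the 9 genes passed in hip caps (edgeR adjusted p from 0.21 to 1.00), where 0.0188% of all genes did, and 2 of 9 had an unadjusted p under 0.05, as did 3145 of 21283 genes. DESeq2 called 0 of 9, and 577 of 15074 genes. *Pth1r* came nearest, at 322 to 435 CPM against 536 to 851 CPM in controls, a log2 fold change of -1.11 ± 0.40 (adjusted p = 0.21). It was the one of the 9 whose 5 MPa hip caps all lay below the controls, where 7.85% of all genes did. The summed chondrocyte markers were at 19380 to 46500 CPM against 41380 to 68310 CPM in controls, with 0 of 6 called. The macrophage and osteoclast markers were at 258.2 to 823 CPM against 145 to 257.6 CPM (0 of 4 called) and the muscle markers at 11.4 to 22.7 CPM against 6.52 to 10.9 CPM (0 of 5 called), both without overlap. The hypertrophic markers were at 7869 to 9737 CPM against 10320 to 12360 CPM in controls (0 of 5 called), also without overlap. The median log2 fold change of the 5 perichondrial and mesenchymal markers was 1.33 (0 called). The part of these cell types was not tested. *Pthlh* was at -1.07 ± 0.52 (adjusted p = 0.34) and *Gli2* at -0.47 ± 0.20 (adjusted p = 0.28). *Ptch1* and *Gli3* were at 0.03 ± 0.24 and -0.00 ± 0.16. All 5 MPa hip caps were on another run than the hip cap controls, so the adjustment for run in this contrast drew mainly on metatarsal libraries.

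**Figure D4:**
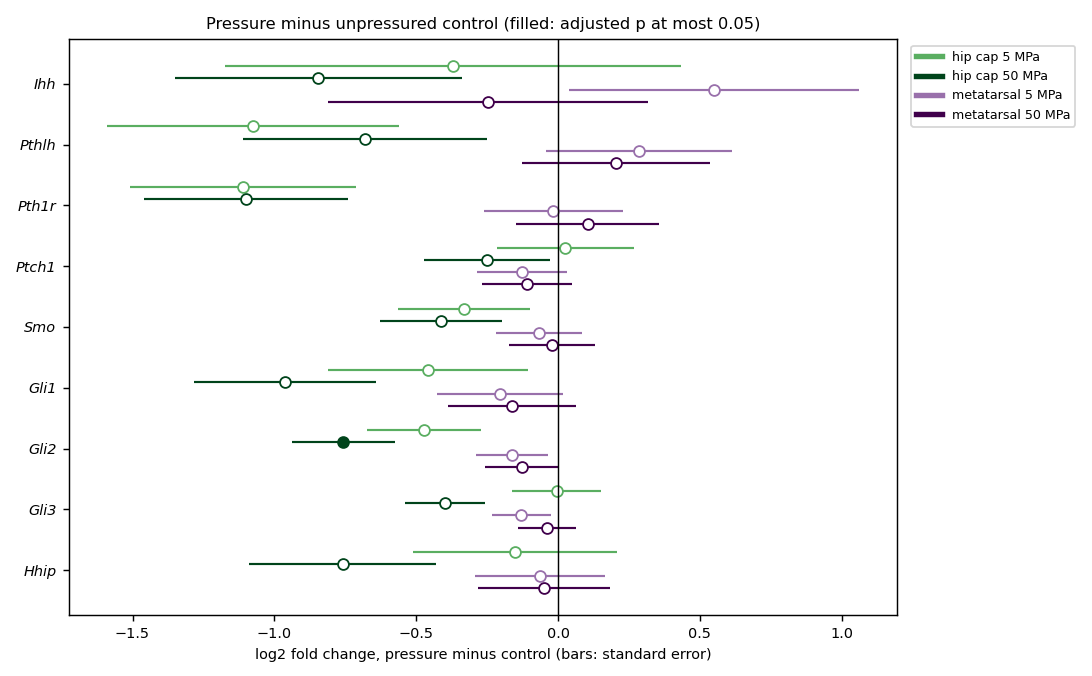
Log2 fold change (pressure minus unpressured control) of the 9 genes in hip caps and metatarsals at 5 and 50 MPa; points are fitted values, bars are standard errors, and the filled point passed an adjusted p of 0.05. The hip cap values at 50 MPa are all negative and *Gli2* is the filled one, while the metatarsal values lie about 0.

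In metatarsals none of the 9 genes passed at 5 or 50 MPa (edgeR adjusted p = 1.00 for each), where 0.0% of all genes did in either comparison, and 0 of 9 had an unadjusted p under 0.05. At an unadjusted p under 0.05 there were 689 and 828 genes in all, and DESeq2 called 13 and 9 genes, none of the 9 among them. The log2 fold changes ran from -0.21 to 0.55 at 5 MPa and from -0.25 to 0.21 at 50 MPa. Over the 9 genes the 95% intervals reached from -0.64 to 1.55 and from -1.36 to 0.86, the widest belonging to *Ihh* with its few counts. For *Gli3*, the best measured, the log2 fold changes were -0.13 ± 0.10 and -0.04 ± 0.10.

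The test of whether pressure acted differently in hip caps and metatarsals called 0 of 9 genes at 5 MPa, where 0.0188% of all genes passed, and 0 of 9 at 50 MPa, where 0.132% did. At an unadjusted p under 0.05 there were 2 and 4 of the 9, beside 2381 and 3900 of 21283 genes. DESeq2 called 0 and 2 of the 9, beside 128 of 19603 and 1349 of 15486 genes (*Pth1r* and *Gli2* at 50 MPa, adjusted p = 0.043 and 0.040). With edgeR the differences of the log2 fold changes at 50 MPa were -1.20 ± 0.40 for *Pth1r* (adjusted p = 0.12) and -0.63 ± 0.20 for *Gli2* (adjusted p = 0.12). At 5 MPa they were -1.36 ± 0.55 for *Pthlh* (adjusted p = 0.37) and -1.09 ± 0.43 for *Pth1r* (adjusted p = 0.36).

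The other genes of the 2 pathways, 60 on lists by role of which 56 were tested, divided between the unpressured tissues, with 17 higher and 9 lower in hip caps, where 29.9% of all genes passed, and a median log2 fold change of 0.08 beside -0.08 for all genes. With library sizes alone 4 were higher and 27 lower, at a median of -0.84 beside -0.97 for all genes. Among the ligand *Dhh* and the genes that process and release hedgehog ligands 3 of 6 tested were higher and 0 lower. The higher ones included *Scube1* at 77.8 against 13.2 CPM (2.50 ± 0.54, adjusted p = 0.0021) and *Scube2* at 6.90 against 2.28 CPM (2.38 ± 0.50, adjusted p = 0.0011), secreted proteins that help release the lipid-bound ligand. The other ligands were nearly undetected: *Shh* did not pass the filter, with medians of 0.0604 CPM in hip caps and 0.367 CPM in metatarsals, and *Dhh* was at 0.270 and 0.311 CPM. Among receptors and co-receptors 0 of 6 were higher and 2 lower in hip caps. They were *Gpc3*, a glypican that competes for hedgehog ligand, at 2.12 against 190 CPM (-6.44 ± 0.38, adjusted p = 3.1e-10), and *Cdon*, a co-receptor, at 141 against 297 CPM.

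Of 8 other genes known to respond to hedgehog signalling 2 were higher and 4 lower, in the same comparison in which 29.9% of all genes passed. *Osr1* was at 0.568 against 33.4 CPM (-5.83 ± 0.49, adjusted p = 3.5e-08), *Foxc2* at 5.09 against 18.2 CPM (-1.66 ± 0.28, adjusted p = 0.00010) and *Foxf2* at 1.39 against 4.27 CPM (-1.54 ± 0.39, adjusted p = 0.0050), all encoding mesenchymal transcription factors, and *Mycn*, a growth regulator, was the other. Those higher were the cyclin gene *Ccnd1* and the survival gene *Bcl2*, each by 0.82 on the log2 scale, and neither passed with library sizes alone. In the relay from Smo to GLI 4 of 16 were higher and 1 lower, and of 6 primary cilium genes 2 were higher and 0 lower. The share of 29.9% over all genes stands beside these counts and those of the relay below Pth1r. In the relay below Pth1r 6 of 14 were higher and 2 lower, among the latter *Zfp521*, which acts below PTHrP to hold hypertrophy back (-1.09 ± 0.20, adjusted p = 0.00036). The higher ones included *Runx2*, a driver of chondrocyte hypertrophy that also acts on *Ihh*, at 274 ± 22.9 against 50.6 ± 16.2 CPM (2.70 ± 0.26, adjusted p = 1.6e-07), *Nkx3-2*, a repressor of hypertrophy that PTHrP maintains, at 21.3 against 5.33 CPM (2.26 ± 0.36, adjusted p = 7.0e-05), and *Runx3* at 43.9 against 16.2 CPM (1.70 ± 0.31, adjusted p = 0.00025). The *Foxf2* and *Scube2* calls were lost in 5 and 4 of 31 alternatives and both without metatarsal control replicate 1, as were those of *Foxc2*, *Zfp521* and *Runx3*. The *Scube1* call was lost without hip cap control replicate 3 or metatarsal 50 MPa replicate 4.

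**Figure D5:**
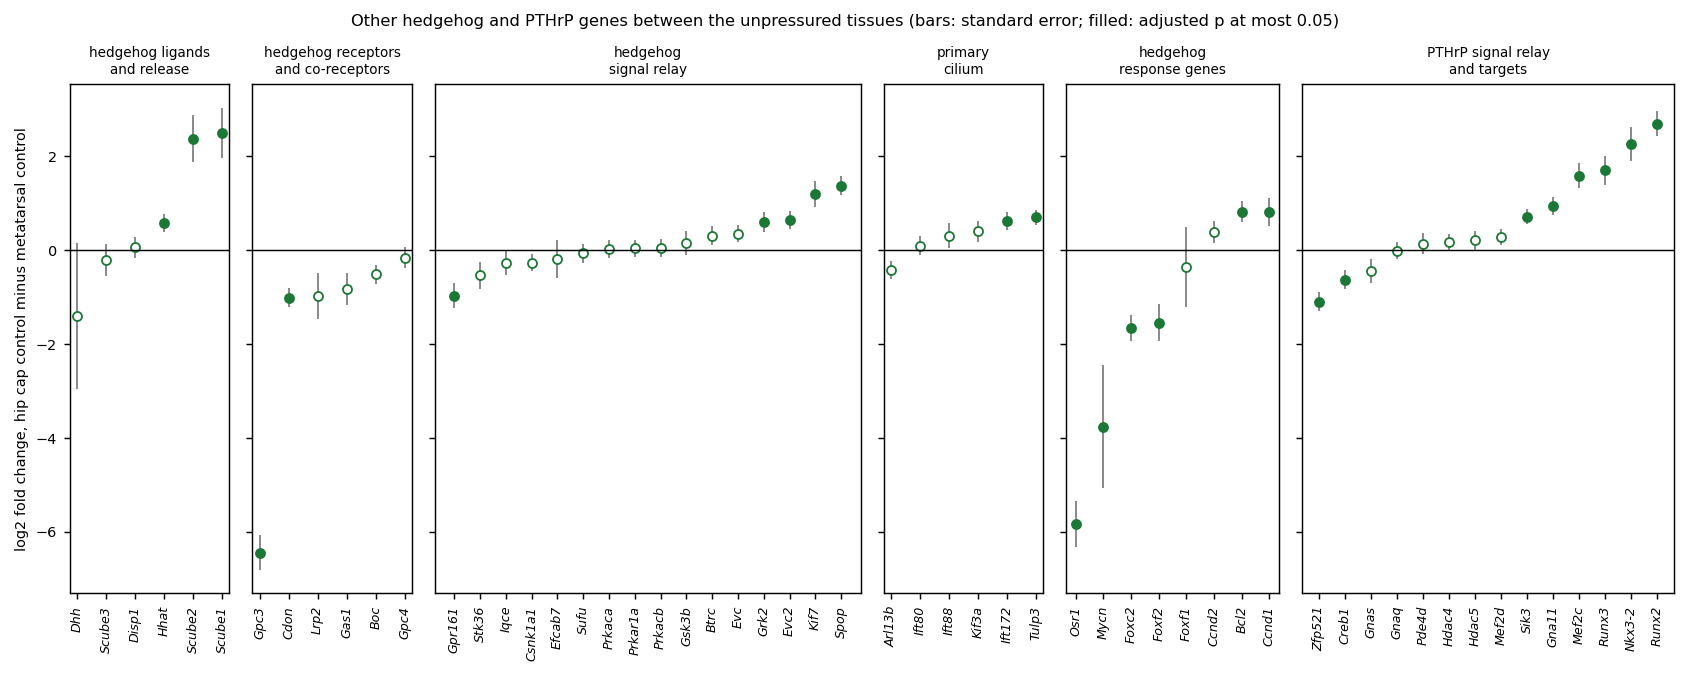
Log2 fold change (hip cap control minus metatarsal control) of the 56 other genes tested, by role; points are fitted values, bars are standard errors, and filled points passed an adjusted p of 0.05. No receptor or co-receptor is a filled point above 0, and *Gpc3* and *Osr1* are the lowest points.

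At 5 MPa, where batch terms carry no weight, 15 of the 56 were higher and 12 lower in hip caps, where 37.9% of all genes passed, and at 50 MPa 11 and 12, where 19.7% did. The extremes at 5 MPa were *Runx2* (2.60 ± 0.18, adjusted p = 2.8e-10), *Scube1* (1.955 ± 0.36), *Runx3* (1.66 ± 0.20) and *Mef2c* (1.39 ± 0.18) on the higher side. On the lower side they were *Gpc3* (-6.69 ± 0.30), *Osr1* (-4.01 ± 0.28), *Zfp521* (-1.70 ± 0.15) and *Foxf2* (-1.24 ± 0.25). *Mef2c* promotes hypertrophy. The same 8 genes were the extremes at 50 MPa, from *Runx2* at 2.53 ± 0.27 to *Gpc3* at -5.85 ± 0.37. There *Osr1*, *Foxf2* and *Scube1* lost their calls without metatarsal 50 MPa replicate 4 (adjusted p = 0.10, 0.29 and 0.59).

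Between hip caps at 50 MPa and their controls 2 of the 56 were higher and 5 lower under pressure, where 5.18% of all genes passed (706 higher and 396 lower), and the median log2 fold change was -0.20. *Scube2* fell from 6.90 ± 1.63 to 2.04 ± 1.04 CPM (-2.0 ± 0.45, adjusted p = 0.020), *Kif7*, a ciliary regulator of GLI proteins, from 35.1 ± 9.62 to 18.3 ± 2.89 CPM (-1.13 ± 0.28, adjusted p = 0.026), *Evc*, which acts with Smo at the cilium, from 45.9 ± 11.4 to 25.7 ± 4.14 CPM (-0.97 ± 0.18, adjusted p = 0.012), and *Boc*, a co-receptor, from 120 ± 24.6 to 73.3 ± 5.195 CPM (-0.89 ± 0.21, adjusted p = 0.021). *Evc2*, partner of *Evc*, fell by 0.84 on the log2 scale (adjusted p = 0.020), with overlapping libraries. *Csnk1a1*, a kinase that primes GLI proteins for processing, and *Creb1*, which acts on cyclic AMP signals, rose by 0.73 ± 0.20 (adjusted p = 0.037) and 1.00 ± 0.23 (adjusted p = 0.020), though their libraries overlapped those of controls. The 4 named genes that fell kept their call in 25 to 27 of 32 alternatives, *Creb1* in 22 and *Csnk1a1* in 10. All 6 lost it without hip cap control replicate 3 and with all 24 libraries. They also all lost it with library sizes alone, within run 1 and with hip caps fitted alone. At 5 MPa 0 of the 56 passed in hip caps with edgeR, 13 had an unadjusted p under 0.05, as did 3145 of 21283 genes, and 2 were lower with DESeq2, which called 577 of 15074 genes. In metatarsals 0 of the 56 passed with edgeR or DESeq2 at either pressure, and 1 at 5 MPa and 0 at 50 MPa had an unadjusted p under 0.05.

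Genes whose log2 CPM followed a member most closely over the 22 libraries were found by Pearson correlation against 14069 genes, a description in which the points share tissue and run and most of the likeness is the difference between tissues. For *Ihh* they were *Cpe* (r = 0.99), *Rbp4* (r = 0.99) and *Pcsk6* (r = 0.99), and for *Pth1r* they were *Alpl* (r = 0.99), a phosphatase of mineralising tissue, *Pcsk6* (r = 0.99) and *Sparc* (r = 0.99). *Pthlh* was followed by *Pygl*, *Arhgef28* and *Shroom2* (r = 0.96 each) and *Ptch1* by *Prelp*, *Chst11* and *Plxnb1* (r = 0.98 each). For *Smo* they were *Rftn2* (r = 0.96), *Gaa* (r = 0.95) and *Ube4b* (r = 0.95). For *Gli1* they were *Wnk2* (r = 0.91), *Tenm2* (r = 0.83) and *Speg* (r = 0.82), and for *Gli2* they were *Ror2*, *Sh3pxd2a* and *Zfhx3* (r = 0.95, 0.93 and 0.93). *Gli3* was followed by *AI593442*, *Chrna7* and *Dnaaf3* (r = 0.93 each) and *Hhip* by *Zkscan7*, *Ddn* and *Trdmt1* (r = 0.90, 0.89 and 0.87).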

How the data were processed

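RNA from 24 explant libraries (6 groups of 4) was depleted of ribosomal RNA and sequenced as read pairs. The study reported RNA integrity values below the ideal minimum in all samples, and it proposes some partial degradation. The part of RNA quality in the differences was not tested. The authors trimmed reads with Trim Galore (0.6.5), quantified transcripts with kallisto against GRCm39 and summed them to genes, and the deposited values are estimated counts per gene, not normalised. These were rounded. The 22 libraries the study used entered one edgeR (4.0.16, R 4.3.3) quasi-likelihood fit after filterByExpr (21283 of 52178 genes) and trimmed mean of M values scaling, with terms for group, sequencing run and library type. The 2 tissue-by-pressure interactions were contrasts of the same fit, tests were two-sided, and fold changes carry their standard error. Each standard error was taken as the absolute log2 fold change over the square root of the test's F statistic. The 95% intervals reach 1.96 such errors to each side, so errors and intervals are approximate. A prior count of 2 was used for log2 CPM. Library type came from the labels, which give 6 of the 24 libraries as unstranded, while the study's methods describe strand-specific libraries, so this term is uncertain. Run was read from a colour strip in the study's clustering figure, whose split differs from that in its methods, so it is uncertain too. Totals ranged from 4185557 to 25104484 counts. p-values measure the spread between pools of explants.

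The 9 genes, the pathway lists and the marker lists were chosen with earlier results of these data known. From the wider lists the text names the 5 highest and 5 lowest genes that passed in controls and up to 4 each way elsewhere, with a mean of at least 1 CPM, and the 3 genes most like each member. *Evc2*, *Cdon*, *Mycn*, *Ccnd1* and *Bcl2* were named after their values were seen. A gene of the lists is not reported here. Erythroid markers were called in neither tissue of the controls (0 of 2 tested). Osteoblast markers were higher in hip cap controls (3 of 3), as was 1 of 4 macrophage and osteoclast markers (*Acp5*). Gene lengths came from GENCODE M21, and sequences from RefSeq (GRCm38.p6), a different build from that of the counts. Alternatives were DESeq2 (1.42.0), other scaling, no filter, all 24 libraries, fewer batch terms, a replicate block, single tissues, single runs and each library left out. The steps were tested on simulated counts.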

Additional observations from a re-analysis of the deposited data

Results flagged for a closer look

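Of 36 groups of 4 libraries examined (9 genes in 4 groups), 5 held a library far from its other three, where chance alone gives about 1 in 20. In metatarsals at 50 MPa, replicate 4 was highest for *Ihh* (1.37 CPM). In metatarsal controls, replicate 4 was lowest for *Pthlh* (1.70 CPM). In metatarsals at 5 MPa, replicate 3 was highest for *Smo* (134 CPM). In hip caps at 5 MPa, replicate 3 was lowest for *Gli1* (30.9 CPM) and replicate 4 was highest for *Gli2* (75.4 CPM). None of the 9 genes passed the test of a difference between tissues in the response to pressure (edgeR).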

How the results depend on the processing

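Over 2520 recomputed values for the 9 genes, 2443 kept their side of the threshold, 58 lost the call, 17 gained one and 2 reversed. A further 135 of the 2443 changed sign while passing in neither fit. The 2 that reversed were *Smo* with library sizes alone, at -0.14 in controls and -0.10 at 5 MPa, a scaling under which 7.97% of the genes called in controls were higher in hip caps (712 higher, 8217 lower) against 2994 higher and 3378 lower. The number of the 9 genes that passed moved by over 1.5 times as follows. With all 24 libraries it was 3 of 9 between control tissues, 5 at 5 MPa and 0 in hip caps at 50 MPa. Within 1 sequencing run it was lower between tissues in controls and at 50 MPa, where metatarsals had a single library. In hip caps at 50 MPa on that run it was 0. In hip caps at 5 MPa it was 1 with library type only or no batch terms. Of all 21283 genes, 572 were then higher and 590 lower with library type only, and 944 and 1083 without batch terms. The main fit had 2 higher and 2 lower. In hip caps at 50 MPa it was 4 with DESeq2, 0 with library sizes alone, 0 with each tissue alone and 2 with a replicate block. DESeq2 gave 2 for the interaction at 50 MPa. Leaving out 1 library at a time gave 4 to 7 between controls, 7 to 8 at 5 MPa and 3 to 6 at 50 MPa, 0 to 3 in hip caps at 50 MPa and 0 to 1 for the interaction at 50 MPa. The number of all genes called between tissues also fell with all 24 libraries, as given above. The cause was not tested.

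Replicate numbers did not pair the libraries: same-numbered libraries of a tissue had residual correlations from -0.18 to 0.29 over 20 pairs. With the replicate block 6, 7 and 6 of the 9 passed between tissues in controls, at 5 MPa and at 50 MPa. Of all 21283 genes, 2826 were then higher and 3264 lower in controls. At 5 MPa these were 3887 and 3917, and at 50 MPa 2086 and 1909. In hip caps at 50 MPa *Gli1* gained a call under the block (-1.17, adjusted p = 0.037).

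The fit within hip caps at 5 MPa for a single run was not possible, as the one hip cap control on that run was the one left out. *Ihh* in metatarsals rests on 4 to 56 counts, so its changes there were not detectable at this depth beyond the intervals given.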
